A study of Mus musculus with 6 samples.

Results

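The genes described here are Cd44, the main cell-surface receptor for hyaluronan, Spp1, which encodes osteopontin, and 8 further genes of hyaluronan biology: the second receptor Lyve1, the synthases Has1, Has2 and Has3, the degrading proteins Hyal1, Hyal2 and Cemip, and the hyaluronan-binding protein Tnfaip6. They were found by symbol in the deposited gene table, where all 10 had 1 row each among 34745 genes. RNA-seq was performed on prostate tissue of 6 male C57BL/6 mice, all young adults at the start. The 3 mice of the T + E2 group carried a subcutaneous slow-release pellet of testosterone (T) and estradiol (E2), renewed each month, for 12 weeks, and the 3 mice of the control (CON) group had the skin incision alone. Every library came from a different mouse, and these mice served for sequencing alone. The comparison measures the response of bulk prostate tissue, with its glands, muscle, vessels and blood cells mixed, to both hormones at once. The sources used here do not say which lobes were taken for RNA.

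Hyaluronan is a long unbranched sugar polymer of the extracellular matrix, made at the plasma membrane by the Has synthases and extruded as it grows. Outside the cell it holds water, is cross-linked by binding proteins, and is bound by receptors such as CD44 on many cell types and LYVE1 on lymphatic vessels and some macrophages. It is cut by surface and lysosomal hyaluronidases and by CEMIP, and the pieces are broken down in lysosomes. Osteopontin is a secreted, phosphorylated glycoprotein that binds integrins through an RGD motif and is also a ligand of CD44. In the prostate, CD44 is known as a protein of basal epithelial cells and of leukocytes.

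The 6 libraries held between 14816146 and 16555549 counts on genes, and 3 counts corresponded to 0.182 to 0.207 CPM (counts scaled by the library total and its TMM factor). The 10 genes together took 0.0104 to 0.0140% of the counts of a mouse. Libraries CON 2 and T + E2 2 stood apart, because a list of 7 seminal vesicle genes summed to 10311 and 642 CPM there and to 0.628 to 4.10 CPM in the other mice. Results were therefore also computed without both. Luminal epithelial marker genes, which define the gland, summed to 15495 to 20051 CPM in CON and 4009 to 4757 CPM in T + E2, of which the androgen-dependent secretory gene Pbsn (log2 fold change -3.29, adjusted p = 2.45e-05) and Krt18 (-0.54, adjusted p = 0.00704) were lower and Cdh1 (0.34, adjusted p = 0.0462) was higher. These 3 calls were 2 with any single mouse left out and 1 without both libraries.

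The receptor Cd44 and the hyaluronan-cutting protein gene Cemip fell in the hormone-treated prostates, whereas Lyve1, Spp1 and Hyal2 rose. Of the 10 genes, 9 passed the filter on low counts and 5 had an adjusted p under 0.05 in edgeR's quasi-likelihood test, against 19.6% of the 15580 genes tested. The 3 that rose stand beside 10.4% of all tested genes, and the 2 that fell beside 9.25%. The same shares stand beside the counts of calls in every list of genes given here. Cd44, Cemip, Lyve1 and Spp1 also had an absolute log2 fold change over 1 and so were DEGs, as were 7.64% of all tested genes. For 6 of the 9, these 5 and Has2, no T + E2 value lay within the CON values, which held for 40.7% of all tested genes. The median log2 fold change of the 9 was 0.45 and of all tested genes -0.002, and the median absolute change was 1.05 against 0.261. In such bulk tissue fewer cells of a type cannot be told apart from less RNA per cell, and the p-values rest on 3 mice in each group, for which an exact permutation test of a single gene could not go below 0.1.

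**Figure D1:**
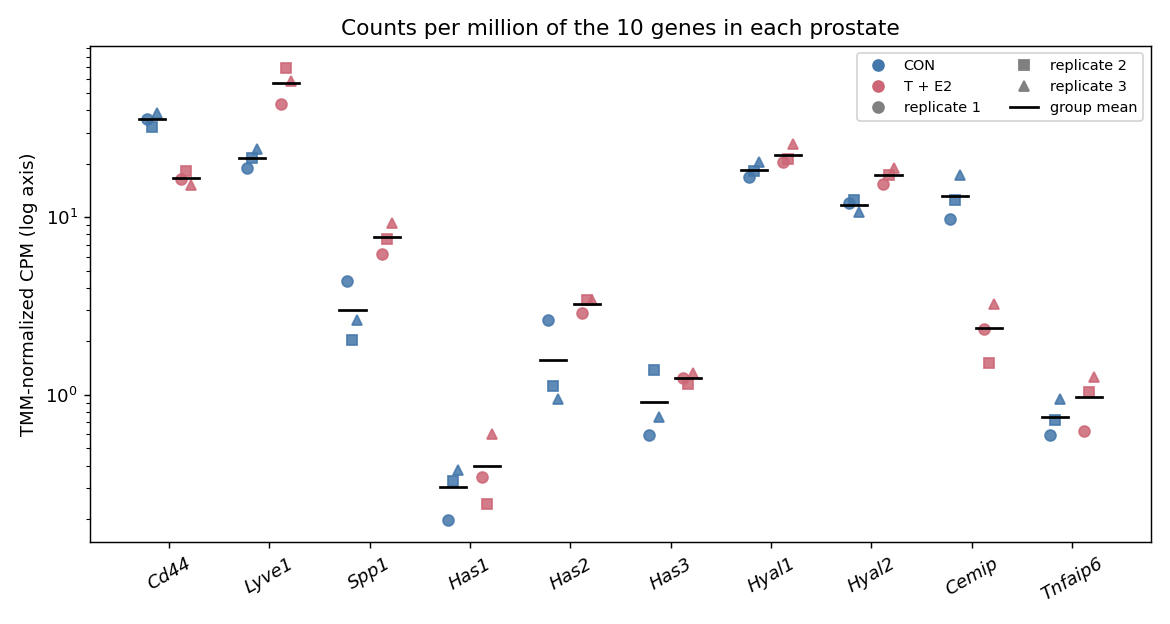
TMM-normalized CPM (log axis) of each of the 10 genes in the 3 CON (blue) and 3 T + E2 (red) prostates, with the replicate number as the marker shape and the group mean as a bar. Cd44 and Cemip lie lower in all 3 T + E2 mice than in any CON mouse, and Lyve1, Spp1, Has2 and Hyal2 lie higher, although CON 1 comes close to the T + E2 mice for Has2.

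Cd44 (ENSMUSG00000005087, chr2:102811141-102901665, minus strand) measured 35.7, 32.4 and 38.6 CPM in the 3 CON prostates and 16.4, 18.3 and 15.3 CPM in the 3 T + E2 prostates, from 229 to 615 counts. The groups did not overlap, and the highest T + E2 mouse (18.3 CPM) was far below the lowest CON mouse (32.4 CPM). The mean was 2.13-fold lower, with a log2 fold change of -1.09 (SE 0.114, 95% interval -1.36 to -0.83, adjusted p = 0.000584 by edgeR). The gene has 9 annotated transcripts, 8 of them protein-coding, through which its variable exons are included or skipped, and counts per gene do not separate these forms. Esrp1 and Esrp2, epithelial splicing factors that favour the variable exons of Cd44, had log2 fold changes of 0.17 (adjusted p = 0.327) and 0.00 (adjusted p = 0.983).

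Of 13 genes whose products act with or on CD44, all tested, 1 passed the test, the sheddase gene Adam17 (log2 fold change 0.34, adjusted p = 0.0498), which was higher. None passed the test in the direction of Cd44, and the median log2 fold change of the 13 was 0.09. The linker proteins that tie CD44 to actin had log2 fold changes of -0.31 for Ezr (unadjusted p = 0.0277, adjusted p = 0.0981), 0.12 for Rdx (adjusted p = 0.414) and -0.15 for Msn (adjusted p = 0.507). All 3 T + E2 values of Ezr, 1332 to 1521 CPM, lay below the CON values of 1540 to 1905 CPM. Adam17 was lost without CON 2, CON 3, T + E2 1 or T + E2 2, and without both libraries with seminal vesicle transcripts.

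Basal epithelial markers, summed over 4 genes, measured 155 to 257 CPM in CON and 245 to 313 CPM in T + E2. The basal transcription factor gene Trp63 was higher (log2 fold change 0.57, adjusted p = 0.0108), whereas the basal keratin genes Krt5 (0.21, adjusted p = 0.542), Krt14 (-0.54, adjusted p = 0.274) and Krt15 (0.59, adjusted p = 0.0628) did not pass the test. The list had 2 calls without CON 1 and 0 without both CON 2 and T + E2 2. Cd44 itself had adjusted p-values of 0.00137 to 0.00364 with each mouse left out in turn, and without both libraries its log2 fold change was -1.23 (adjusted p = 0.00469).

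**Figure D2:**
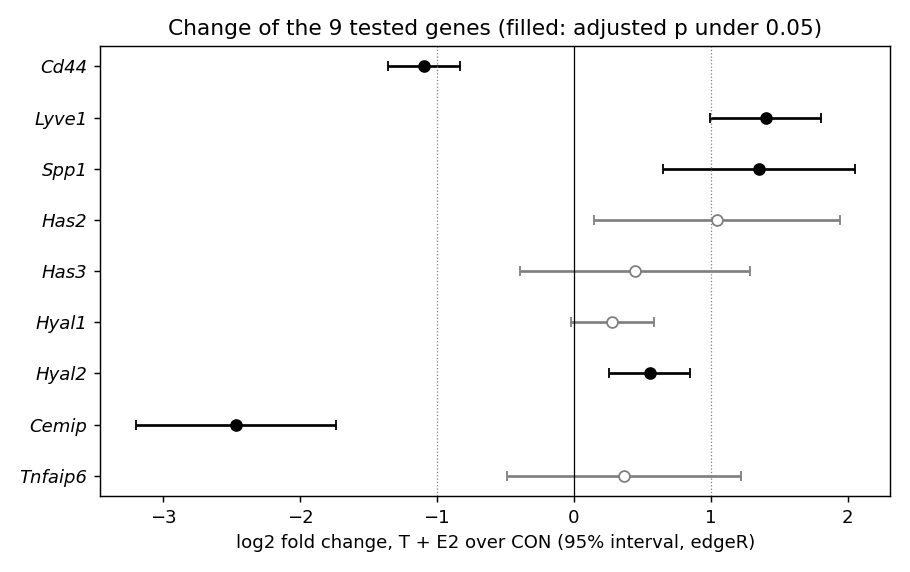
Log2 fold change, T + E2 over CON, of the 9 tested genes with the 95% interval from the edgeR fit over all genes, filled where the adjusted p was under 0.05, and dotted lines at the DEG thresholds. The intervals of Cd44 and Cemip lie below 0, those of Lyve1, Spp1, Has2 and Hyal2 above 0, and those of Has3, Hyal1 and Tnfaip6 span 0.

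Lyve1 (ENSMUSG00000030787, chr7:110850607-110862953, minus strand), the hyaluronan receptor best known from lymphatic endothelium, measured 19.0, 21.5 and 24.2 CPM in CON and 43.5, 68.8 and 58.5 CPM in T + E2. All 3 hormone-treated mice lay above all CON mice, with the largest value in T + E2 2. The mean was 2.64-fold higher (log2 fold change 1.40, SE 0.176, 95% interval 1.00 to 1.81, adjusted p = 0.00141 by edgeR). With each mouse left out the adjusted p was 0.000524 to 0.00714, and it was 0.0175 without CON 2 and T + E2 2, where the log2 fold change was 1.24.

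Markers of both cell types known to carry LYVE1 were measured beside it. Of 6 lymphatic endothelial markers 5 were tested and 2 were higher, the vessel matrix gene Mmrn1 (log2 fold change 0.82, adjusted p = 0.0165) and Pdpn, the podoplanin gene (0.61, adjusted p = 0.00609). Prox1, the transcription factor that sets lymphatic identity, measured 2.05, 2.36 and 2.32 CPM in CON and 3.18, 2.13 and 2.67 CPM in T + E2, and its log2 fold change of 0.24 did not pass (adjusted p = 0.522). The receptor gene Flt4 did not pass either (-0.15, adjusted p = 0.483), Reln measured 0.23 (adjusted p = 0.222), and the chemokine gene Ccl21a had no count in any mouse. The summed lymphatic list ran from 61.7 to 65.6 CPM in CON and from 84.8 to 91.2 CPM in T + E2. It had 1 call without CON 2, CON 3 or T + E2 2 and none without both CON 2 and T + E2 2.

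Of 10 macrophage markers 5 were higher and none passed in the lower direction. The scavenger receptor gene Cd163 rose most (log2 fold change 1.41, adjusted p = 0.00758), and Mrc1, the mannose receptor gene, followed (1.14, adjusted p = 0.0135). These are genes of resident tissue macrophages, as are the complement genes C1qa (0.63, adjusted p = 0.0428), C1qb (0.77, adjusted p = 0.00914) and C1qc (0.58, adjusted p = 0.0392). The general macrophage markers Adgre1 (0.31, adjusted p = 0.475), Cd68 (0.14, adjusted p = 0.521) and Csf1r (0.23, adjusted p = 0.36) did not pass. The summed list ran from 276 to 380 CPM in CON and from 432 to 653 CPM in T + E2, and no marker was at 0. Both the list and Lyve1 were highest in T + E2 2, but among the CON mice their orders were opposite, with macrophage sums of 380, 291 and 276 CPM in CON 1, CON 2 and CON 3. The list had 3 calls without CON 2, CON 3, T + E2 2 or T + E2 3 and 2 without both CON 2 and T + E2 2. The part of either cell type in the higher Lyve1 was not tested.

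Of 6 further receptor and uptake genes for hyaluronan, 5 were tested and 2 were higher. Stab1, a scavenger receptor gene of macrophages and sinusoidal endothelium, had a log2 fold change of 0.44 (adjusted p = 0.0301). Tlr4, the endotoxin receptor gene, measured 3.11, 1.64 and 11.4 CPM in CON and 18.0, 23.8 and 19.4 CPM in T + E2, and CON 3 stood well apart from the other CON mice (log2 fold change 1.92, adjusted p = 0.049). Hmmr (-0.23, adjusted p = 0.821), Layn (0.07, adjusted p = 0.869) and Tlr2 (0.36, adjusted p = 0.308) did not pass, and Stab2 was below the filter. The list had no call without CON 2, T + E2 2 or T + E2 3, nor without both CON 2 and T + E2 2, and 1 call without CON 1, CON 3 or T + E2 1.

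Spp1 (ENSMUSG00000029304, chr5:104435118-104441050, plus strand) was the ligand gene of the group. It measured 4.37, 2.03 and 2.64 CPM in CON and 6.22, 7.54 and 9.33 CPM in T + E2, from 31 to 66 and 90 to 140 counts. The groups did not overlap, CON 1 was the highest of the CON mice, and relative to the mean the spread within both groups was wider than that of Cd44. The mean was 2.55-fold higher (log2 fold change 1.35, SE 0.303, 95% interval 0.65 to 2.05, adjusted p = 0.0183 by edgeR). The call was lost without CON 3 (adjusted p = 0.0654), T + E2 2 (adjusted p = 0.0544) or T + E2 3 (adjusted p = 0.0553), and without both CON 2 and T + E2 2 (log2 fold change 1.15, adjusted p = 0.11). CON 1 also had the largest macrophage sum of the CON mice, whereas among the T + E2 mice Spp1 was highest in T + E2 3 and the macrophage sum in T + E2 2 (653 CPM, against 453 CPM in T + E2 3). The part of macrophages in Spp1 was not tested.

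Among 9 integrin subunit genes whose products form osteopontin receptors, 4 were higher, none passed in the lower direction, and the median log2 fold change was 0.34. Itgb6, which encodes an epithelial subunit that pairs with the alpha v subunit, measured 1.65, 1.97 and 2.13 CPM in CON and 5.67, 4.44 and 3.73 CPM in T + E2, with no overlap (log2 fold change 1.26, adjusted p = 0.00969). Smaller rises were seen for Itga8 (0.49, adjusted p = 0.0186), Itgb1 (0.39, adjusted p = 0.038) and Itgb5 (0.34, adjusted p = 0.0393). Itgav, which encodes the alpha v subunit itself, had values of 46.9 to 62.5 CPM in CON and 30.1 to 78.5 CPM in T + E2 (0.15, adjusted p = 0.772), and its partner gene Itgb3 had a log2 fold change of -0.25 (adjusted p = 0.37). The list had 1 call without CON 2, CON 3 or T + E2 1 and none without both CON 2 and T + E2 2. The other 4 genes of the osteopontin family of bone and tooth matrix proteins, Ibsp, Dmp1, Dspp and Mepe, were below the filter, with a sum of at most 0.331 CPM in any mouse, so Spp1 was the family member that could be measured.

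The synthase genes were low in every prostate. Has2 (ENSMUSG00000022367, chr15:56665627-56694539, minus strand), the synthase needed for most hyaluronan of the embryo, measured 2.65, 1.12 and 0.942 CPM in CON and 2.90, 3.41 and 3.40 CPM in T + E2, from 15 to 56 counts. All T + E2 mice lay above all CON mice, but CON 1 was nearer to the T + E2 mice than to CON 2 and CON 3. The log2 fold change of 1.05 (SE 0.389, 95% interval 0.15 to 1.94) had an unadjusted p of 0.0274 and an adjusted p of 0.0974 by edgeR and was not called. Without CON 1 it was 1.65 (adjusted p = 0.0101), and the other 5 fits with a mouse left out gave adjusted p-values of up to 0.232.

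Has3 (ENSMUSG00000031910, chr8:106870242-106884566, plus strand) measured 0.595, 1.38 and 0.754 CPM in CON and 1.24, 1.16 and 1.33 CPM in T + E2, from 9 to 21 counts. CON 2 had the largest value of all 6 mice, so the groups overlapped (log2 fold change 0.45, 95% interval -0.39 to 1.29, adjusted p = 0.419). Has1 (ENSMUSG00000003665, chr17:17843328-17855188, minus strand) had 3, 5 and 6 counts in CON and 5, 4 and 9 counts in T + E2, which is at or little above 3 counts, and it stayed below the filter. Its 14 against 18 counts gave a ratio of 1.3 with a 95% interval of 0.609 to 2.81 that covers counting error only. Per kilobase of exon, Has2 made up 82.0, 47.7 and 52.5% of the summed level of the 3 synthases in CON and 71.6, 77.4 and 70.1% in T + E2, the largest share in every mouse. The share of Has2 in CON 1 was above that of every T + E2 mouse. For these shares Has1 was taken at 4518 merged bases. Its deposited FPKM implied 2090, and with that length the share of Has1 would be larger and that of Has2 smaller.

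None of the 7 genes that supply the synthases with UDP-sugars passed the test. These were Ugdh, Ugp2, Uap1, Gfpt1, Gfpt2, Gnpnat1 and Pgm3, with log2 fold changes from -0.19 for Pgm3 to 0.43 for Gfpt2 and a median of 0.17. Ugdh, which makes the UDP-glucuronic acid that hyaluronan needs, measured 0.21 (adjusted p = 0.327).

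Cemip (ENSMUSG00000052353, chr7:83932857-84086502, minus strand) encodes a hyaluronan-binding protein required for hyaluronan cleavage in fibroblasts and had the largest change of the 9 tested genes. It measured 9.72, 12.5 and 17.2 CPM in CON and 2.35, 1.52 and 3.27 CPM in T + E2, from 147 to 274 and 25 to 49 counts. The lowest CON mouse was above the highest T + E2 mouse, and the means differed 5.53-fold (log2 fold change -2.47, SE 0.317, 95% interval -3.20 to -1.74, adjusted p = 0.00157 by edgeR). With each mouse left out the log2 fold change was -2.77 to -2.22 and the adjusted p at most 0.00677, and without CON 2 and T + E2 2 it was -2.26 (adjusted p = 0.0167). Its paralogue Cemip2, a surface hyaluronidase gene, had a log2 fold change of -0.03 (adjusted p = 0.859). Fibroblast markers, 6 genes of which none passed the test, summed to 1423 to 1612 CPM in CON and 1542 to 1897 CPM in T + E2, and 1 of them passed without CON 2 and T + E2 2. Most of the sum was Dcn, with means of 866 CPM in CON and 1090 CPM in T + E2. Log2 fold changes were 0.33 for Dcn, 0.11 for Pdgfra, -0.41 for Col1a1, -0.27 for Lum, -0.12 for Col3a1 and -0.11 for Fbln1. Their median was -0.11. The part of fibroblasts in the lower Cemip was not tested.

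Hyal2 (ENSMUSG00000010047, chr9:107567945-107572779, plus strand), the gene of the surface-anchored hyaluronidase that makes the first large pieces, measured 12.1, 12.5 and 10.7 CPM in CON and 15.5, 17.4 and 19.1 CPM in T + E2. The groups did not overlap, and the rise was small, 1.47-fold on the mean (log2 fold change 0.55, SE 0.129, 95% interval 0.26 to 0.85, adjusted p = 0.0212 by edgeR). It was lost without CON 3 (adjusted p = 0.0737), T + E2 2 (adjusted p = 0.0596) or T + E2 3 (adjusted p = 0.0581), without both CON 2 and T + E2 2 (adjusted p = 0.0995), and in limma fits of log2 FPKM (adjusted p = 0.0659 with 0.1 added to each value). Hyal1 (ENSMUSG00000010051, chr9:107576927-107581710, plus strand), its lysosomal neighbour on the chromosome, measured 16.8, 18.3 and 20.4 CPM in CON and 20.4, 21.4 and 25.8 CPM in T + E2. The lowest T + E2 mouse lay at the level of the highest CON mouse, and the log2 fold change of 0.28 (95% interval -0.02 to 0.58, adjusted p = 0.167) was not called.

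Of 8 further genes of hyaluronan degradation 4 were tested and 3 were higher. Hexa, a lysosomal exoglycosidase gene, measured 112, 113 and 118 CPM in CON and 218, 219 and 214 CPM in T + E2 (log2 fold change 0.93, adjusted p = 0.00021), and the groups were far apart. Gusb, the gene of beta-glucuronidase, had a log2 fold change of 0.48 (adjusted p = 0.00798). Both enzymes also act on other glycans. The remaining one was Hyal3, a further hyaluronidase family gene, at 1.06, 1.44 and 0.628 CPM in CON and 3.25, 4.01 and 2.87 CPM in T + E2 (log2 fold change 1.69, adjusted p = 0.0105). Hyal4, Hyal5, Hyal6 and Spam1, of which Spam1 encodes the sperm hyaluronidase, had no count in any mouse. The list had 3 calls with any single mouse left out and 2 without both CON 2 and T + E2 2.

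Per kilobase of exon, Cemip held 8.91, 10.5 and 14.0% of the summed level of Cemip, Hyal1 and Hyal2 in CON and 1.87, 1.12 and 2.07% in T + E2. Hyal1 held 49.9 to 53.7% in CON and 51.2 to 53.0% in T + E2, and Hyal2 32.4 to 41.2% and 44.9 to 47.7%. Thus the share of Hyal1 ranged over much the same values in both groups, and the shares of Cemip and Hyal2 did not overlap between them.

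Tnfaip6 (ENSMUSG00000053475, chr2:52038009-52056686, plus strand) encodes TSG-6, which moves heavy chains of inter-alpha-inhibitor onto hyaluronan and so cross-links it. It measured 0.595, 0.722 and 0.942 CPM in CON and 0.622, 1.03 and 1.27 CPM in T + E2, from 9 to 19 counts. The groups overlapped, and the log2 fold change of 0.37 (95% interval -0.49 to 1.23, adjusted p = 0.52) was not called, although at this depth the interval still held a change of more than 2-fold upwards.

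Matrix proteins that bind or cross-link hyaluronan formed the list with the largest number of calls. In share of tested genes it did not exceed the further degradation list, where 3 of 4 were higher. Of 17 genes 8 were tested and 6 were higher, as were 10.4% of all tested genes. Of these 6, 4 were DEGs. None passed in the lower direction, and the median log2 fold change was 1.16. The heavy chain gene Itih2 measured 10.8, 8.21 and 7.91 CPM in CON and 38.1, 37.0 and 28.3 CPM in T + E2 (log2 fold change 1.94, adjusted p = 0.000242), and the related Itih5 106, 77.5 and 99.2 CPM in CON and 267, 259 and 221 CPM in T + E2 (1.40, adjusted p = 0.000449). Both were well separated between the groups. Prg4, the lubricin gene, had a log2 fold change of 1.71 (adjusted p = 0.027) and Habp2, the gene of a hyaluronan-binding serine protease, 1.44 (adjusted p = 0.00747). Vcan, the gene of the large proteoglycan versican, had a log2 fold change of 0.92 (adjusted p = 0.003), and the link protein gene Hapln4 one of 0.51 (adjusted p = 0.0415). Ambp, which encodes the bikunin chain of inter-alpha-inhibitor, had no count in any mouse. The list had 4 or 5 calls with a mouse left out and 4 without both CON 2 and T + E2 2.

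**Figure D3:**
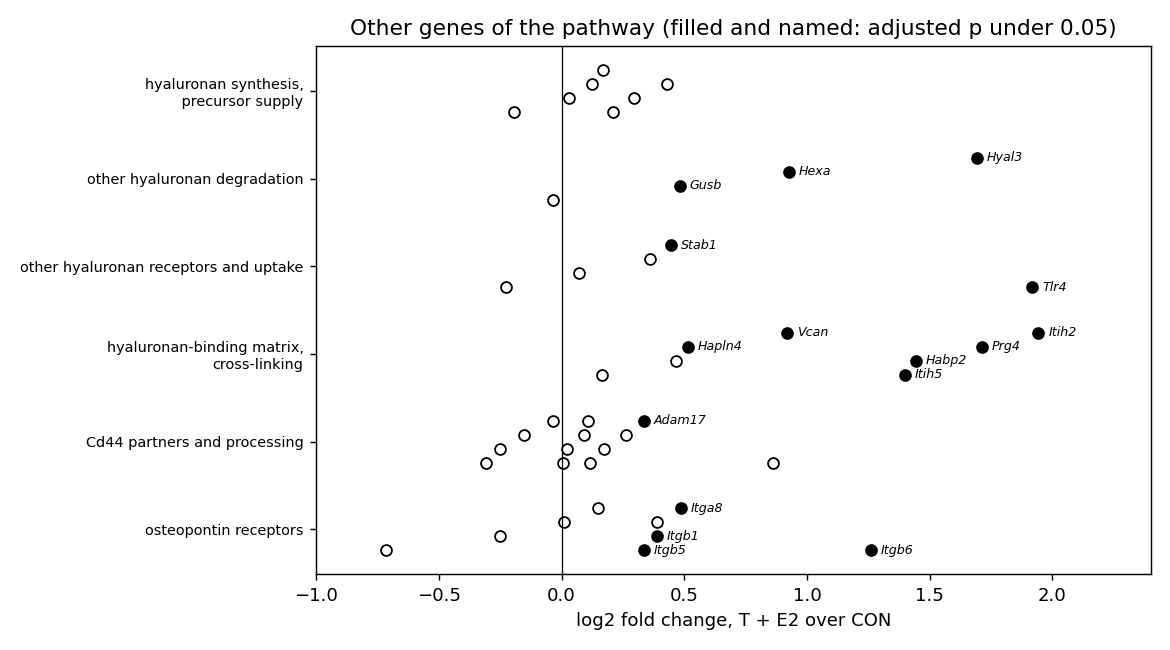
Log2 fold change, T + E2 over CON, of every tested gene of 6 pathway lists, 1 point a gene, filled and named where the adjusted p was under 0.05 in the edgeR fit over all genes. All filled points lie right of 0, the synthesis list has no filled point, and the filled points of the matrix list run from 0.51 to 1.94.

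Levels were compared between genes as CPM per kilobase of merged exons, since the deposited FPKM used a longer gene length for several of them. For Has1 the deposited length was shorter, 2090 bases against 4518 merged, and for Lyve1 2607 against 2919. Lyve1 was the highest of the 10 in both groups, at 7.39 ± 0.901 (SD, n = 3) CPM per kilobase in CON and 19.5 ± 4.36 in T + E2. In CON it was followed by Cd44 (5.25 ± 0.462), Hyal1 (4.90 ± 0.480), Hyal2 (3.58 ± 0.285), Spp1 (1.83 ± 0.734), Cemip (1.07 ± 0.310), Tnfaip6 (0.440 ± 0.103), Has2 (0.370 ± 0.221), Has3 (0.142 ± 0.0649) and Has1 (0.0667 ± 0.0204), all CPM per kilobase. The neighbours Cd44 and Hyal1, Spp1 and Cemip, and Tnfaip6 and Has2 overlapped between mice in this order, and the other neighbours did not. In T + E2 the order was Lyve1, Hyal1 (5.97 ± 0.761), Hyal2 (5.26 ± 0.545), Spp1 (4.67 ± 0.948), Cd44 (2.46 ± 0.227), Has2 (0.764 ± 0.0682), Tnfaip6 (0.570 ± 0.191), Has3 (0.195 ± 0.0139), Cemip (0.194 ± 0.0714) and Has1 (0.0877 ± 0.0406). There the overlaps were Hyal1 with Hyal2, Hyal2 with Spp1, Has2 with Tnfaip6, Has3 with Cemip, and Cemip with Has1. Cd44 thus ranked 2 among the 10 genes in CON and 5 in T + E2, and Cemip 6 and 9. By deposited FPKM Has1 ranked 9 in CON and 8 in T + E2, and Has3 ranked 10 in both. The lowest places, and the gap between Has3 and Has1 in CON, thus depend on the length used.

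Some of the 10 genes share sequence with a neighbour, and whether strand was used in counting is not given in the sources used here. Hyal1 lies over Hyal3 and Nat6 on the same strand, and the counts of a shared stretch cannot be assigned to 1 of them. Nat6 had a log2 fold change of 0.06 (adjusted p = 0.786). The antisense partner of Hyal2, Gm9917, had 9 to 17 counts a mouse (log2 fold change 0.02, adjusted p = 0.981), that of Hyal1, Gm16343, had none, and Chtf8, which overlaps Has3, measured 84.6 to 101 CPM (-0.03, adjusted p = 0.871), far above Has3 itself. Gm42793, which overlaps Spp1, had 1 or 2 counts a mouse. The antisense transcript gene Has2os had 3 to 4 counts in CON and 6 to 9 in T + E2, too few to be tested, and lay on the same side as Has2.

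The 6 genes whose groups did not overlap had different shapes over the mice. Has2 and Spp1 were both highest in CON 1 among the CON mice, Lyve1, Cemip and Cd44 in CON 3, and Hyal2 in CON 2. By the smallest Euclidean distance between log2 CPM values centred on each gene's mean over the 6 mice, the genes most like Cd44 were Gm9726 (distance 0.117), Insc (0.203), the spindle orientation adaptor gene, and Mrps6 (0.229), a gene of the mitochondrial ribosome. Mrps6 measured 55.8, 50.1 and 62.9 CPM in CON and 27.0, 27.1 and 27.9 CPM in T + E2. The genes most like Spp1 were Lbp (distance 0.334), the gene of lipopolysaccharide-binding protein, Galnt15 (0.389), of an O-glycan transferase, and Kcnab1 (0.484), of a potassium channel subunit. Lbp measured 47.3, 25.7 and 33.8 CPM in CON and 86.7, 102 and 103 CPM in T + E2, with CON 1 again the highest CON mouse. These distances are descriptions over 6 mice.

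**Figure D4:**
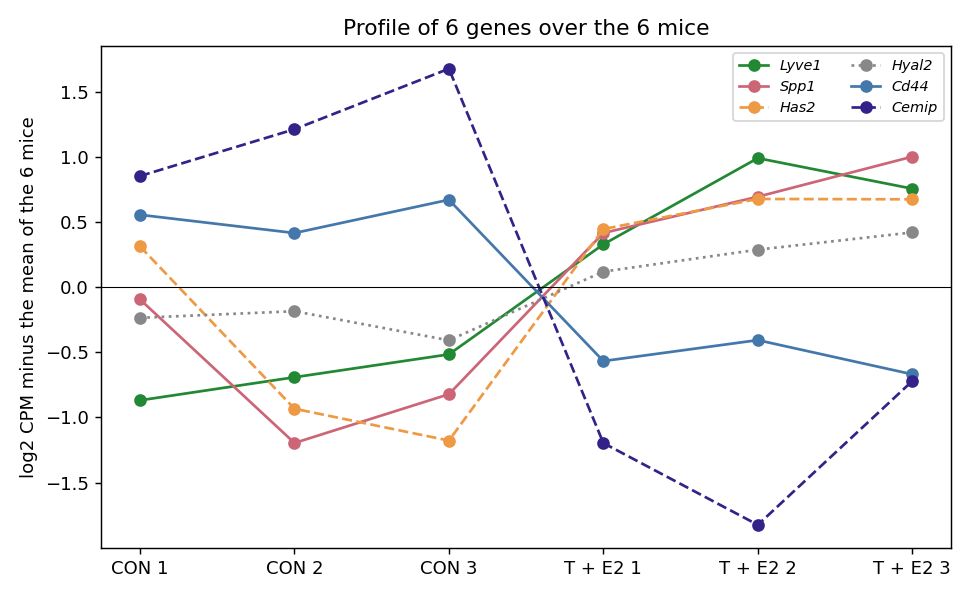
Log2 CPM of the 6 genes without overlap between groups, each minus its mean over the 6 mice, with 1 point a mouse and lines that only join the points of a gene, since mice have no order. Cemip spans the widest range and Hyal2 the narrowest, and Has2 in CON 1 lies above 0, next to the T + E2 mice.

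The start regions of the DEGs Cd44, Cemip and Spp1 are shown because the first pair fell and the last rose. RefSeq sequences for GRCm38.p6, from 250 bases before to 50 after the start site, were used for 7 of the 10 genes, and those of Has2, Has3 and Lyve1 were not analysed here. Capitals mark exact matches on either strand to 6 motifs. AGGTCA is a half-site of the oestrogen receptor, and TGTTCT is a half-site of the androgen receptor. TGACTCA is the site of the AP-1 factors, and TATAAA is the core of the TATA box. The last pair are the CCAAT box, searched by the letters of its name, and the GC box, searched as GGGCGG, and no match to a motif overlaps one to another in the windows shown.
Cd44, chr2:102901616-102901915, minus strand: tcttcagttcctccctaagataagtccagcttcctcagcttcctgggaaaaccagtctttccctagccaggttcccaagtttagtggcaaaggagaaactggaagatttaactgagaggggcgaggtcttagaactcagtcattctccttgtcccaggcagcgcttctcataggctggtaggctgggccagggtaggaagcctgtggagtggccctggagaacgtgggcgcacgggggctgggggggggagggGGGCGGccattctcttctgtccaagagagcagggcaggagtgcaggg
Cemip, chr7:84086456-84086755, minus strand: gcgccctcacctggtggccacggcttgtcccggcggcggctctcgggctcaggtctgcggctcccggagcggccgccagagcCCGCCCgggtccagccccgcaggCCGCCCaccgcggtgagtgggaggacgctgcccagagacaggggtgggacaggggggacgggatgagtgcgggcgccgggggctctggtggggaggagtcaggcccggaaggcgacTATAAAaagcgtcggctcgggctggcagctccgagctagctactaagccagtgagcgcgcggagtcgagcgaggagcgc
Spp1, chr5:104434861-104435160, plus strand: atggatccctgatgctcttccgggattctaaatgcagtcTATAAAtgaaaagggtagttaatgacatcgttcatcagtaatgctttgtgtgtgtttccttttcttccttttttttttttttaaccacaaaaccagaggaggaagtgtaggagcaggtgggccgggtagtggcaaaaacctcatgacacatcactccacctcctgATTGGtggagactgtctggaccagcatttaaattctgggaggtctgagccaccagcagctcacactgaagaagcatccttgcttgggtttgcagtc

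The Cd44 window held 1 match, a GC box just after the start. The Cemip window held a TATA box 29 bases before the start and 2 GC boxes on the reverse strand, and the Spp1 window a TATA match 211 bases and a reverse CCAAT match 46 bases before the start. A second annotated start of Spp1, at chr5:104435942-104436241, held none of the 6 motifs. Neither hormone receptor half-site was found in these windows of Cd44, Cemip and Spp1. Of the remaining genes, the Has1 and Tnfaip6 windows each held a reverse AGGTCA match, the Has1 window also a reverse TGTTCT match at the start site, and the Tnfaip6 window an AP-1 match. Over 32851 promoter windows of the same length, AGGTCA was found in 16.3%, TGTTCT in 19.0%, TGACTCA in 5.20%, TATAAA in 13.6%, CCAAT in 37.4% and GGGCGG in 35.7%. A match of so few letters is no binding site, and none in 300 bases says nothing of sites elsewhere.

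Over the 15 other settings, in which the scaling, filter or test was changed or mice were left out, Cd44, Cemip and Lyve1 passed the adjusted p threshold in all 15 and all 9 tested genes kept their direction. Spp1 passed in 11, Hyal2 in 7 and Has2 in 1, and Has3, Hyal1 and Tnfaip6 in none. For Cd44 and Cemip the smallest changes came from limma on log2(FPKM + 1), at -0.74 and -0.72, because 1 is large beside FPKM values such as the 2.88 ± 0.208 (SD, n = 3) of Cd44 in CON.

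**Figure D5:**
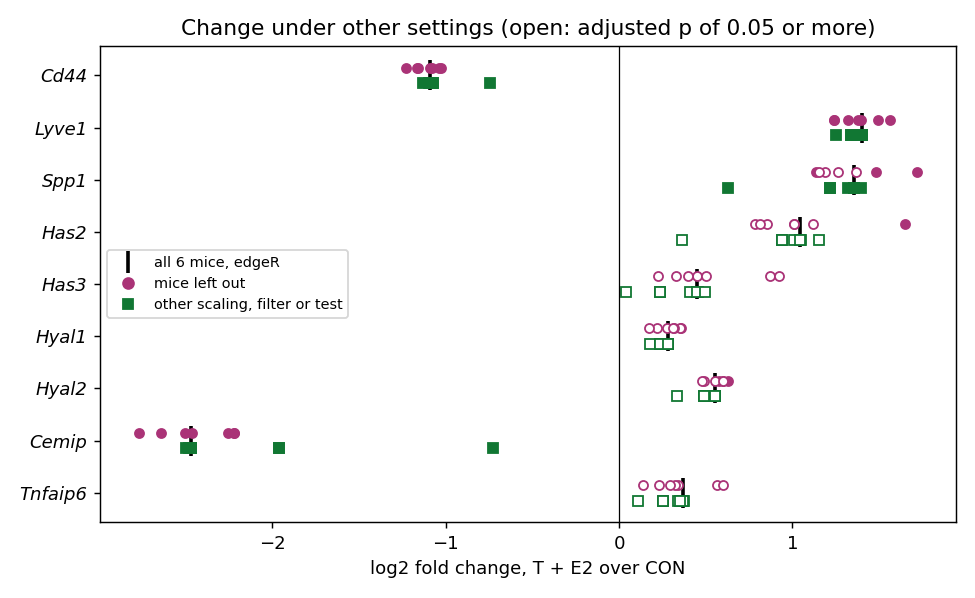
Log2 fold change of the 9 tested genes with all 6 mice (black bar), with mice left out (purple circles) and with another scaling, filter or test (green squares), open where the adjusted p was 0.05 or more. Every point of Cd44, Cemip and Lyve1 is filled, those of Spp1 and Hyal2 are mixed, and no point crosses 0.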

How the data were processed

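RNA-seq was performed by the authors on prostate tissue of 6 mice, 3 CON and 3 T + E2, grouped by the sample labels. The authors deposited 1 table of 34745 genes with whole-number counts per gene and with FPKM values, which they computed from these counts. The submitters' processing notes name TopHat, Bowtie2 and HTSeq. The annotation and the strand setting are not given in the sources used here. Coordinates of 8 of the 10 genes are identical to GENCODE M21 on GRCm38, and the gene length behind the deposited FPKM of these 8 equals the sum of all distinct exons, in which overlapping exons count more than once. Has1 and Lyve1 differ in both, and their deposited lengths were shorter than their merged exons. Levels between genes were therefore given per kilobase of merged exons.

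Counts were fitted with edgeR 4.0.16 in R 4.3.3 (TMM scaling, filterByExpr with a minimum count of 10 and a minimum total of 15, glmQLFit and glmQLFTest, Benjamini-Hochberg adjustment over 15580 genes). A gene was a DEG where its adjusted p was under 0.05 and its log2 fold change was over 1 in size. Each SE was the log2 fold change over the square root of its F value. Log2 CPM used a prior count of 2. The alternatives were DESeq2 1.42.0, median-of-ratios and total-count scaling, no filter, limma 3.58.1 on FPKM values after adding 0.1 or 1 and taking log2 (filter: FPKM of 0.1 in 3 samples), a block for the replicate number, each mouse left out and, chosen after seeing the data, CON 2 and T + E2 2 left out together. Reads carry no molecular identifiers, so floors and intervals of counts cover counting error only. The fit was tested on simulated data, with the biological coefficient of variation set to 18%. Figures were drawn with matplotlib 3.10.9.

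The genes and the pathway and marker lists were chosen with earlier results of these data known. Named genes are the 10 genes, up to 4 called genes of each list by size of change with their counterparts, and the 3 tested genes nearest to Cd44 and to Spp1. Genes named beyond these, such as further called genes of the matrix and marker lists, were added after their values were seen. Of the lists, genes without a value in the text enter only the counts, medians and sums, and 1 gene was left out of its list and is not reported here.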

Additional observations from a re-analysis of the deposited data

How the results depend on the processing

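Of the 10 genes, 5 passed the adjusted p threshold with all 6 mice, 3 to 6 with a mouse left out in turn, 3 without both CON 2 and T + E2 2, and 4 with the replicate block. The number of DEGs among them was 4, was 3 to 5 with a mouse left out, and fell to 1 in limma on log2(FPKM + 1), where the DEGs over all genes fell from 1191 to 561. Leaving out a mouse gave 965 to 1140 DEGs over all genes. In fits that left out T + E2 2 or CON 2 each group kept at least 2 mice. Deviations of same-numbered mice correlated at -0.0516, 0.0275 and 0.0463, within the range of -0.182 to 0.137 of differently numbered mice. These values show no pairing by replicate number but cannot exclude shared handling, and both libraries numbered 2 held seminal vesicle transcripts. With the replicate block 1013 genes were DEGs, and among the 10 genes it changed the call of Hyal2 (log2 fold change 0.55, adjusted p = 0.0598). The block also lowered the calls of the osteopontin receptor list from 4 to 1, of the Cd44 partner list from 1 to 0, of the further receptor list from 2 to 1, of the matrix list from 6 to 4, and of the macrophage and lymphatic lists from 5 to 3 and from 2 to 1. Under DESeq2, the other scalings and no filter, the same 5 genes passed. The cause of the changes was not tested. Has1, Has3 and Tnfaip6 had at most 21 counts in a mouse. The 95% intervals of Has3 and Tnfaip6 reach from small falls to rises of over 2-fold.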

Other observations

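Markers of further cell types in the same fit gave the following counts. All 3 tested urothelial genes were higher, Upk2 (log2 fold change 2.20, adjusted p = 0.00322), Upk1a (1.80, adjusted p = 0.00109) and Upk1b (0.66, adjusted p = 0.0171), and the list summed to 421 to 641 CPM in CON and 1372 to 1698 CPM in T + E2. Nearly all of the sum was Upk1a and Upk1b, whereas Upk2 had 10 to 82 counts a mouse. Upk3a, below the filter, had 0 counts in each CON mouse and 5, 99 and 3 in T + E2. The urothelial list had 2 calls without CON 2, T + E2 1 or T + E2 2. It also had 2 with the replicate block and 2 without both CON 2 and T + E2 2. Of 5 smooth muscle genes, Acta2 (-0.50, adjusted p = 0.0137) and Des (-0.38, adjusted p = 0.044) were lower. The smooth muscle list had 1 call without CON 3, T + E2 1 or T + E2 3, and 1 with the replicate block. No call was left without T + E2 2, nor without both CON 2 and T + E2 2. None of the tested blood endothelial (5), mesothelial (4), B and plasma cell (5), T cell (4), neutrophil (1), adipocyte (3) and seminal vesicle (3) markers passed in edgeR with all 6 mice. The B and plasma cell list had 3 calls without CON 1 and 1 without T + E2 3, the neutrophil list 1 without T + E2 1, and the seminal vesicle list 1 with the replicate block. The adipocyte sum was 455 CPM in CON 2 and 37.5 to 119 CPM in the other mice.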
